A study of Mus musculus with 12 samples.

Results

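The interleukin-1 (IL-1) family and Tslp are described here as 8 genes of mouse keratinocytes, out of 17090 genes in the expression table. Their rows were taken by gene symbol from a fixed list of members. Il1a, Il1b, Il1rn, Il18, Il33 and Tslp, 6 of the 8, are in the table under those symbols. Il36a and Il36g, the other 2, are in it under their older symbols, Il1f6 and Il1f9, and are written here as Il36a (Il1f6) and Il36g (Il1f9).

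Alarmins are signals, cytokines among them, that epithelial cells release when they are damaged or stressed. IL-1 alpha, IL-1 beta and the IL-36 cytokines act through receptors that share the accessory chain IL-1RAP and switch on MyD88, IRAK kinases, TRAF6 and NF-kappa-B, while the receptor antagonists encoded by Il1rn and Il36rn bind the same receptors without signalling. IL-18 uses a receptor of its own with the same kind of intracellular domain, and IL-33 uses ST2 together with IL-1RAP. TSLP, which belongs to another cytokine family, uses a receptor made of CRLF2 and the IL-7 receptor alpha chain. In skin, IL-33 and TSLP are known as epithelial signals to innate lymphoid cells, dendritic cells and mast cells, and the IL-36 cytokines are known from psoriasis.

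Polyadenylated RNA was sequenced from primary keratinocytes of tail skin of K14-SmoM2 mice, whose keratin 14 expressing epidermis makes an active form of Smoothened after tamoxifen, which is used to model basal cell carcinoma. Cells were taken 5 weeks after tamoxifen. All 4 groups carried this genotype and grew in medium with 60 µM calcium, 10 ng/ml EGF and 10 µM of the ROCK inhibitor Y-27632, so no cells without SmoM2 are compared. The siYAP1+TAZ group received small interfering RNA pools against Yap1 and Wwtr1 (the TAZ gene) in a lipid carrier, and the siControl group a non-targeting pool, at 8 pmol per cm2. The adeno-TEADi group received a type 5 adenovirus that expresses TEADi, an inhibitor of the TEAD transcription factors through which YAP1 and TAZ act, and the adeno-GFP group a virus that expresses green fluorescent protein, both from the CMV promoter and at a multiplicity of infection of 25. Harvest was 48 h after treatment. Each group has 3 libraries, lettered A, B and C; the labels name no separate cultures or animals for them, and the spread behind each p-value is that between these libraries, which may be technical.

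Values are CPM (read counts divided by library size), as deposited after trimmed-mean scaling, and libraries held 20.04 to 29.14 M reads. Differences are log2 changes on log2(CPM + 1) with their standard error (SE) from limma, and p-values are adjusted by Benjamini-Hochberg over the 12966 genes that had at least 1 CPM in at least 3 libraries. A gene passed at an adjusted p under 0.05. The targeted genes were lower in the siYAP1+TAZ libraries, with Yap1 at 67.1 ± 4.62 CPM against 196 ± 9.57 CPM in siControl and Wwtr1 at 28.1 ± 1.97 CPM against 55.2 ± 1.96 CPM (SD, n = 3). Ccn2, a widely used target of YAP1, TAZ and TEAD, was at 9.002 ± 1.58 CPM in siYAP1+TAZ and 48.2 ± 3.19 CPM in siControl, and at 5.40 ± 0.467 CPM in adeno-TEADi and 65.3 ± 3.90 CPM in adeno-GFP (SD, n = 3). The 6 keratinocyte markers (Krt5, Krt14, Krt1, Krt10, Itga6 and Trp63) summed to between 34240 and 38800 CPM in every library. Krt5 and Krt14 made up most of this sum, which therefore shows little of the changes of the others. Of the 6, 3 rose and 2 fell in siYAP1+TAZ against siControl, and 5 rose and 1 fell in adeno-TEADi against adeno-GFP. The shares over all tested genes are given below. In bulk RNA, a change in the share of cells in a state and a change in RNA per cell cannot be told apart.

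Of the 8 genes, 7 passed the filter on low values and were tested; Il1b did not. All 7 were higher in siYAP1+TAZ than in siControl, where 68.9% of all tested genes passed in either direction, 32.7% as higher and 36.1% as lower. In adeno-TEADi against adeno-GFP, 5 of the 7 (Il1rn, Il33, Il36a, Il36g and Tslp) were higher and 2 (Il1a and Il18) were lower, where 59.8% of all tested genes passed, 33.5% as higher and 26.3% as lower. The median log2 change of the 7 was 1.29 in siYAP1+TAZ against siControl and 0.73 in adeno-TEADi against adeno-GFP, beside medians of -0.03 and 0.03 over all genes tested. No library of a treated group overlapped its control group for any of the 7 in either comparison. The share of all tested genes without such overlap was not computed.

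**Figure D1:**
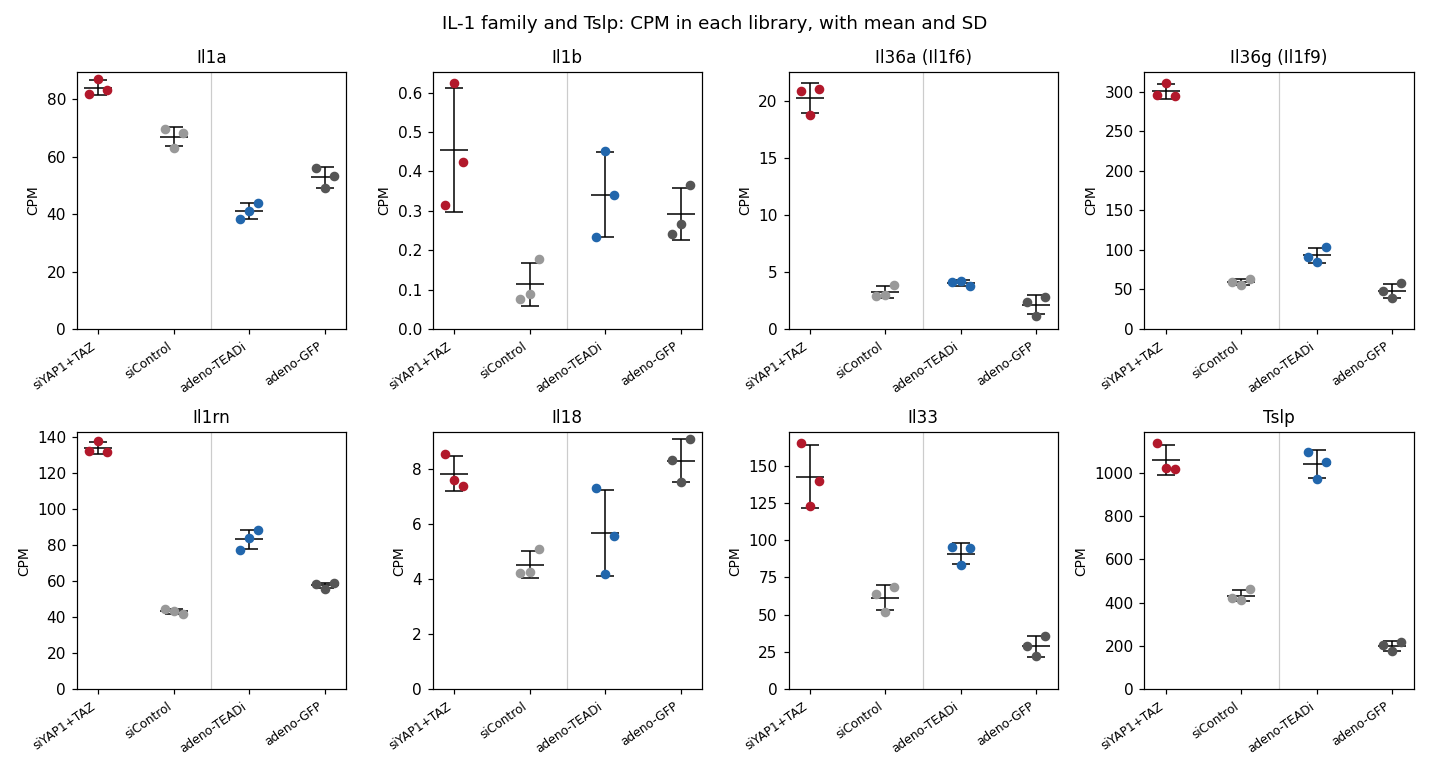
Each panel plots 1 gene; the vertical axis is the level in CPM from 0, on its own scale per panel, each point is 1 library, and the horizontal bar with whiskers is the mean with its SD (n = 3). Tslp averaged 1060 CPM in siYAP1+TAZ and 433 CPM in siControl, and 1040 CPM in adeno-TEADi and 200 CPM in adeno-GFP, while Il36a (Il1f6) and Il36g (Il1f9) stood far higher in siYAP1+TAZ than in the other groups.

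The IL-36 agonists had the largest changes of the 7 after YAP1 and TAZ knockdown. Il36g (Il1f9), which encodes IL-36 gamma, the main IL-36 cytokine of keratinocytes, had 296, 312 and 295 CPM in siYAP1+TAZ libraries A, B and C, against 59.5, 55.6 and 62.9 CPM in siControl. It had 90.9, 85.1 and 103 CPM in adeno-TEADi, against 48.0, 39.3 and 57.5 CPM in adeno-GFP. The siYAP1+TAZ libraries thus stood above all others, and the adeno-TEADi libraries above both control groups. The log2 change of Il36g (Il1f9) was 2.32 (SE 0.0910, limma adjusted p = 1.53e-14) in siYAP1+TAZ against siControl and 0.95 (SE 0.0910, adjusted p = 2.52e-08) in adeno-TEADi against adeno-GFP.

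Il36a (Il1f6), which encodes IL-36 alpha, had 20.9, 18.8 and 21.1 CPM in siYAP1+TAZ, against 2.85, 3.001 and 3.82 CPM in siControl. In adeno-TEADi it had 4.12, 4.22 and 3.77 CPM, against 2.35, 1.17 and 2.80 CPM in adeno-GFP. The adeno-TEADi libraries overlapped the siControl libraries while lying above the adeno-GFP libraries. Its log2 change was 2.34 (SE 0.144, limma adjusted p = 1.85e-11) in siYAP1+TAZ against siControl and 0.73 (SE 0.144, adjusted p = 0.000216) in adeno-TEADi against adeno-GFP; the second value was 0.35 with a pseudocount of 5 CPM.

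Both genes lie on chromosome 2 in a stretch of 198 kb, at 24153161 to 24351494 of mm10, that holds 6 IL-1 family genes on the plus strand: Il36b (Il1f8), Il36g, Il36a, Il36rn (Il1f5), Il1f10 and Il1rn. Il36b (Il1f8), the other IL-36 agonist, averaged 109 ± 1.89 CPM in siYAP1+TAZ and 15.4 ± 0.569 CPM in siControl, and 23.0 ± 3.002 CPM in adeno-TEADi and 10.6 ± 3.33 CPM in adeno-GFP (SD, n = 3). Its log2 changes were 2.75 (SE 0.136, limma adjusted p = 5.41e-13) and 1.09 (SE 0.136, adjusted p = 9.85e-07). Il36rn (Il1f5), the IL-36 receptor antagonist, averaged 335 ± 7.66 CPM in siYAP1+TAZ and 75.5 ± 4.92 CPM in siControl, and 95.7 ± 8.26 CPM in adeno-TEADi and 53.9 ± 10.5 CPM in adeno-GFP (SD, n = 3), with log2 changes of 2.14 and 0.83. Agonists and antagonist of the IL-36 receptor thus rose in both comparisons. Il1f10, whose product IL-38 is known from human work as a further antagonist, stayed under the filter, with at most 0.477 CPM in any library.

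The promoter sequences of this stretch are shown because its 5 tested genes rose in both comparisons. Over all tested genes, 32.7% passed as higher with the knockdown and 33.5% with TEADi, and the share higher in both was not computed. RefSeq promoters (GRCm38.p6) of 6 of the 8 genes were searched, those of Il36a (Il1f6) and Tslp were not used here, and the 250 bases before a start site are printed 5′ to 3′. Windows from 250 bases before to 50 bases after the start were searched on both strands for the TEAD motif GGAATG, the AP-1 motif TGANTCA, the KLF motif CACACCC, which keratinocyte KLF4 is known to bind, and an NF-kappa-B motif; no motif overlapped another in the lines printed, and capitals mark matches on either strand. Of 32851 mouse promoter windows of the same length, 14.7% held the TEAD motif, 7.81% the AP-1 motif, 7.95% the KLF motif and 8.46% the NF-kappa-B motif.
Il36g (Il1f9), chr2:24186226-24186475, plus strand, a KLF match 70 bases before the start: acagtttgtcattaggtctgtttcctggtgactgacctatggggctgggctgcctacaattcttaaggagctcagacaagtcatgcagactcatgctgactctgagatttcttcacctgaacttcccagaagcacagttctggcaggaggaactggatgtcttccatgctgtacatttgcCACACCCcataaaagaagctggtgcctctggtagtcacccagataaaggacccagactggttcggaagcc
Il36b (Il1f8), chr2:24152922-24153171, plus strand, an AP-1 match 236 and a KLF match 62 bases before the start: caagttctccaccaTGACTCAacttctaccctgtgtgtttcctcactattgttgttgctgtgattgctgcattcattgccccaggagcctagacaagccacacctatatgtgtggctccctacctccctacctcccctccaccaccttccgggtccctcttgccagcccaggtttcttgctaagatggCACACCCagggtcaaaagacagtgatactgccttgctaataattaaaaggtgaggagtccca
Il1rn, first of 3 RefSeq starts, chr2:24336610-24336859, plus strand, an AP-1 match 141 bases before the start: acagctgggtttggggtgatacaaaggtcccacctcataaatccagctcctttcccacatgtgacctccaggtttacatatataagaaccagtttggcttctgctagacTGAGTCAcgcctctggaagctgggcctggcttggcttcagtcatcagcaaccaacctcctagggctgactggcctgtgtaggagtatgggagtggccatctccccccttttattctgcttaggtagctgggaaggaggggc
The first Il36rn (Il1f5) window held a TEAD match 62 bases before the start, the last Il1rn window one 24 bases before its start, and the Il1f10 window one 25 bases after the start. A match describes letters in a window and not a bound site.

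Il1rn, the IL-1 receptor antagonist at the end of the same stretch, had 133, 138 and 132 CPM in siYAP1+TAZ, against 44.7, 43.3 and 41.8 CPM in siControl. It had 77.6, 83.8 and 88.3 CPM in adeno-TEADi, against 58.2, 55.9 and 58.8 CPM in adeno-GFP. All treated libraries lay above all control libraries. The log2 change was 1.61 (SE 0.0468, limma adjusted p = 2.64e-16) in siYAP1+TAZ against siControl and 0.52 (SE 0.0468, adjusted p = 8.94e-09) in adeno-TEADi against adeno-GFP.

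Il1a encodes IL-1 alpha, which keratinocytes store and which is active without cleavage by an inflammasome. It was the gene of the 7 with the smallest change in either comparison, and the signs were opposite. It had 82.0, 87.2 and 83.4 CPM in siYAP1+TAZ, against 69.6, 63.2 and 68.3 CPM in siControl. It had 38.4, 41.2 and 44.0 CPM in adeno-TEADi, against 56.3, 49.1 and 53.2 CPM in adeno-GFP. The siYAP1+TAZ libraries were thus the highest and the adeno-TEADi libraries the lowest of the 12. The log2 change was 0.32 (SE 0.0564, limma adjusted p = 4.21e-05) in siYAP1+TAZ against siControl and -0.35 (SE 0.0564, adjusted p = 2.22e-05) in adeno-TEADi against adeno-GFP. The rise is of the size that scaling can move: it was 0.13 (adjusted p = 0.0407) with each library scaled to its total and 0.18 (adjusted p = 0.00615) after quantile normalization. Scaling to totals moved the median of all genes by -0.17 in siYAP1+TAZ against siControl, where 2836 genes passed as higher and 7146 as lower under totals, beside 4245 and 4687 under the deposited scaling.

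Il1a lies on the minus strand of chromosome 2 at 129299610 to 129309972, with 54.6 kb between it and Il1b. Its promoter is shown beside that of Il33 below because the 2 genes moved in opposite directions in adeno-TEADi against adeno-GFP.
Il1a, chr2:129309973-129310222, minus strand, an AP-1 match 12 bases before the start: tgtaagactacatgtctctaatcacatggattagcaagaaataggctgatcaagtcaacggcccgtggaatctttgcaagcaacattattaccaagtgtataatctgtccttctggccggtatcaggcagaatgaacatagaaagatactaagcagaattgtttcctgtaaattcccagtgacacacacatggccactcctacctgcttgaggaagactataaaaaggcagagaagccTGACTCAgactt
Il33, first of 2 RefSeq starts, chr19:29924863-29925112, plus strand, a TEAD match 131 bases before the start: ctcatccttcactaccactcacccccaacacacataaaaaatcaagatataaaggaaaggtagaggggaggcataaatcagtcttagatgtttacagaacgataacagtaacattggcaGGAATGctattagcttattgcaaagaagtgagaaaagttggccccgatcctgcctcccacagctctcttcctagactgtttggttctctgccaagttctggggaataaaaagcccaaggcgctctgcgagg
The second Il33 window held a TEAD match 107 and a KLF match 117 bases before its start. No motif of the 4 was found in the windows of Il1b and Il18.

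The CPM of the antagonist relative to that of Il1a was higher in both treated groups than in their controls. CPM is not divided by exon length, which was 5535 bases for Il1rn and 1974 for Il1a, and 4493 for Il36rn (Il1f5) and 1648 for Il36g (Il1f9). Per kilobase (kb) of exon, Il1rn was below Il1a in every group, at 24.2 against 42.6 CPM per kb in siYAP1+TAZ and 15.0 against 20.9 in adeno-TEADi. The ratios below therefore compare groups and do not give which RNA was more abundant. The ratio of Il1rn to Il1a CPM was 1.59 ± 0.0199 in siYAP1+TAZ and 0.646 ± 0.0365 in siControl, and 2.02 ± 0.0141 in adeno-TEADi and 1.09 ± 0.0533 in adeno-GFP (SD, n = 3). The ratio of Il36rn (Il1f5) to the summed IL-36 agonists went the other way, at 0.779 ± 0.0215 in siYAP1+TAZ and 0.969 ± 0.0346 in siControl, and at 0.797 ± 0.0151 in adeno-TEADi and 0.891 ± 0.0657 in adeno-GFP (SD, n = 3). The groups did not overlap for either ratio in either comparison, and the two-sided exact permutation test gave p = 0.1 in each of the 4 cases, the smallest that 3 against 3 libraries allow.

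Il1b, the classical inflammasome-processed cytokine, was near the limit of detection. It had 0.315, 0.624 and 0.425 CPM in siYAP1+TAZ, against 0.0749, 0.0883 and 0.177 CPM in siControl, which correspond to about 9, 17 and 11 reads against 2, 2 and 5 reads. It had 0.233, 0.451 and 0.339 CPM in adeno-TEADi, against 0.242, 0.265 and 0.366 CPM in adeno-GFP. The siYAP1+TAZ and siControl libraries did not overlap, while adeno-TEADi and adeno-GFP libraries did. The authors' deposited table gives Il1b a ratio of 4.01 (adjusted p = 0.000431) for the knockdown and 1.17 (adjusted p = 0.735) for TEADi. Il1b shares part of its locus with the antisense gene Il1bos, whose levels of 0.0302 to 0.331 CPM are of the same order, and the sources used here do not say whether counting used strand.

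Il18 also needs cleavage by caspase-1 for activity, and keratinocytes are known to hold its precursor. It had 8.56, 7.60 and 7.38 CPM in siYAP1+TAZ, against 4.23, 4.28 and 5.09 CPM in siControl. It had 7.31, 4.18 and 5.59 CPM in adeno-TEADi, against 8.33, 7.54 and 9.10 CPM in adeno-GFP. The adeno-TEADi libraries were spread widely, and their highest lay just under the lowest adeno-GFP library. The log2 change was 0.68 (SE 0.125, limma adjusted p = 8.42e-05) in siYAP1+TAZ against siControl and -0.50 (SE 0.125, adjusted p = 0.00193) in adeno-TEADi against adeno-GFP; without adeno-TEADi library B the second was -0.33 (adjusted p = 0.0179). With a pseudocount of 5 CPM the values were 0.43 and -0.33. Bco2, which overlaps Il18 on the opposite strand, had 1.31 to 1.61 CPM in siYAP1+TAZ and 0.412 to 0.601 CPM in siControl, and 1.23 to 1.74 CPM in adeno-TEADi and 1.33 to 1.63 CPM in adeno-GFP. Its part in the Il18 values was not tested.

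Il33, the nuclear alarmin that signals through ST2, rose in both comparisons. It had 165, 123 and 140 CPM in siYAP1+TAZ, against 63.7, 52.1 and 68.6 CPM in siControl. It had 95.4, 83.1 and 94.5 CPM in adeno-TEADi, against 28.7, 21.9 and 35.7 CPM in adeno-GFP. The adeno-TEADi libraries lay below the siYAP1+TAZ libraries, and the adeno-GFP libraries below the siControl libraries. The log2 change was 1.20 (SE 0.128, limma adjusted p = 7.25e-08) in siYAP1+TAZ against siControl and 1.65 (SE 0.128, adjusted p = 9.27e-10) in adeno-TEADi against adeno-GFP.

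Tslp, on chromosome 18, was the most abundant of the 8 genes. It had 1141, 1022 and 1018 CPM in siYAP1+TAZ, against 423, 414 and 461 CPM in siControl. It had 1098, 971 and 1051 CPM in adeno-TEADi, against 203, 177 and 220 CPM in adeno-GFP. The siYAP1+TAZ and adeno-TEADi libraries overlapped, while the control groups stood apart from each other. The log2 change was 1.29 (SE 0.0672, limma adjusted p = 1.23e-12) in siYAP1+TAZ against siControl and 2.38 (SE 0.0672, adjusted p = 3.45e-16) in adeno-TEADi against adeno-GFP.

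Levels were set against each other per kilobase of annotated exon. Tslp led in every group, at 797 CPM per kb in siYAP1+TAZ and 325 in siControl, and at 781 in adeno-TEADi and 150 in adeno-GFP. Il36g (Il1f9) came next in every group, at 182 CPM per kb in siYAP1+TAZ and 35.99 in siControl, where its libraries overlapped those of Il1a at 33.96. Il33 followed in siYAP1+TAZ at 49.4 CPM per kb, where its libraries overlapped those of Il1a at 42.6, and in adeno-GFP it was at 9.97 CPM per kb, where they overlapped those of Il1rn at 10.4 and Il18 at 8.07. Il1b was last in every group, at 0.238 CPM per kb in siYAP1+TAZ and 0.0594 in siControl. The order between Il36g and Il1b therefore differed between groups, with several neighbours that did not differ beyond their spread.

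The 2 treatments were compared directly by testing the adeno-TEADi effect minus the siYAP1+TAZ effect. All 7 tested genes passed, 2 of them (Tslp and Il33) as higher and 5 as lower, where 51.5% of all tested genes passed, 26.4% as higher and 25.1% as lower. The difference was 1.09 (SE 0.0950, limma adjusted p = 2.50e-08) for Tslp and 0.45 (SE 0.181, adjusted p = 0.0434) for Il33. The Il33 difference did not pass without siControl A or C, siYAP1+TAZ B or C, adeno-GFP A or B, or adeno-TEADi A or C, and was 0.28 (adjusted p = 0.125) without adeno-GFP B. The difference was -1.60 (SE 0.204, adjusted p = 2.94e-06) for Il36a (Il1f6), -1.38 (SE 0.129, adjusted p = 5.78e-08) for Il36g (Il1f9), -1.09 (SE 0.0661, adjusted p = 2.13e-10) for Il1rn, -1.18 (SE 0.177, adjusted p = 2.00e-05) for Il18 and -0.68 (SE 0.0798, adjusted p = 1.13e-06) for Il1a. Il36b (Il1f8) and Il36rn (Il1f5) had differences of -1.66 and -1.31.

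**Figure D2:**
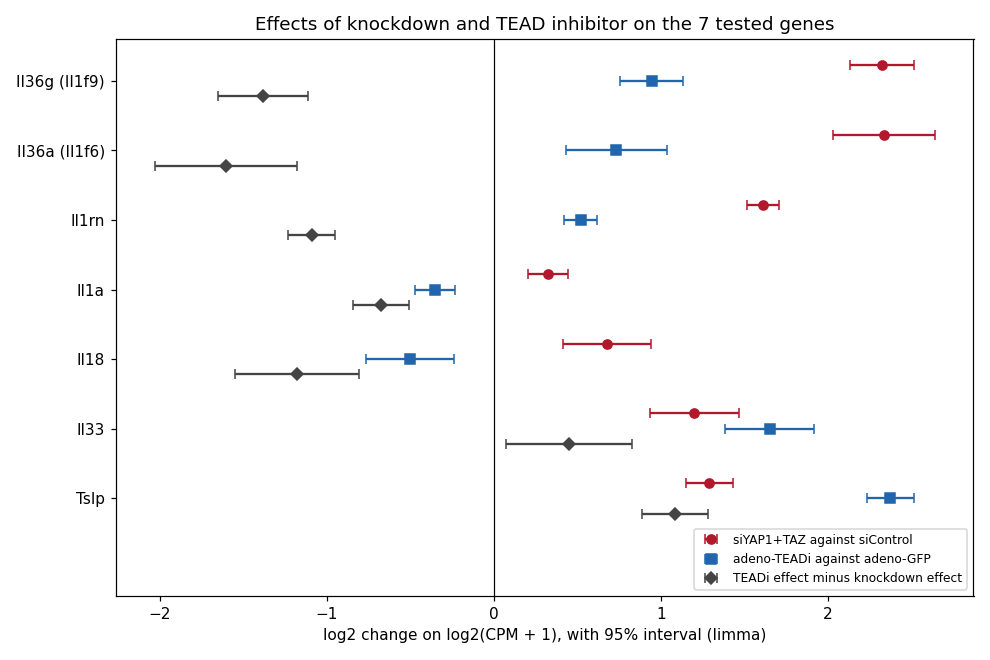
The horizontal axis is the log2 change on log2(CPM + 1) with its 95% interval from limma, for siYAP1+TAZ against siControl (circles), adeno-TEADi against adeno-GFP (squares) and the second effect minus the first (diamonds). Il1a and Il18 lie right of 0 for the knockdown and left of 0 for TEADi, and the differences of Tslp and Il33 are positive while those of the other 5 genes are negative.

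The control groups differed too, which enters every such difference. In adeno-GFP against siControl, 2 of the 7 genes were higher and 5 lower, where 40.4% of all tested genes passed, 18.7% as higher and 21.8% as lower. Tslp was lower in adeno-GFP by a log2 change of -1.11 (SE 0.0672, limma adjusted p = 2.47e-10) and Il33 by -1.09 (SE 0.128, adjusted p = 1.57e-06), while Il18 was higher by 0.75 and Il1rn by 0.41. Il1a had a log2 change of -0.34, Il36a (Il1f6) of -0.47 (adjusted p = 0.0135) and Il36g (Il1f9) of -0.31 (adjusted p = 0.0113), and the Il36g libraries of the 2 groups overlapped. Without adeno-GFP library B, the log2 change was -0.23 (adjusted p = 0.0917) for Il36a and -0.17 (adjusted p = 0.0756) for Il36g, and without siControl library C it was -0.37 (adjusted p = 0.0686) for Il36a. The carrier (virus or lipid) and the cargo (GFP or control RNA) cannot be told apart in this contrast.

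Of 11 listed receptors and decoys, 9 were tested; 3 rose, 5 fell and 1 did not pass in siYAP1+TAZ against siControl, and 2 rose, 6 fell and 1 did not pass in adeno-TEADi against adeno-GFP, with median log2 changes of -0.48 and -0.58. Over all tested genes, 36.1% and 26.3% passed as lower in these comparisons. With libraries scaled to their totals, 1 receptor rose and 7 fell in adeno-TEADi against adeno-GFP. Il18r1, which binds IL-18, had 7.76, 7.49 and 8.50 CPM in siYAP1+TAZ, against 32.2, 31.7 and 29.8 CPM in siControl, and 7.16, 7.49 and 8.18 CPM in adeno-TEADi, against 45.3, 49.3 and 46.2 CPM in adeno-GFP. The treated groups had nearly the same level, well below both controls. Its log2 changes were -1.85 (SE 0.0642, limma adjusted p = 2.63e-15) and -2.48 (SE 0.0642, adjusted p = 1.04e-16).

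Il18rap, the accessory chain of the IL-18 receptor, averaged 2.06 ± 0.192 CPM in siYAP1+TAZ and 10.9 ± 0.542 CPM in siControl, and 2.10 ± 0.0958 CPM in adeno-TEADi and 13.8 ± 0.536 CPM in adeno-GFP (SD, n = 3), with log2 changes of -1.96 and -2.26, which were -1.17 and -1.41 with a pseudocount of 5 CPM. Il1r1, the signalling receptor of IL-1, averaged 6.41 ± 0.775 CPM in siYAP1+TAZ and 11.8 ± 0.831 CPM in siControl, and 8.45 ± 1.41 CPM in adeno-TEADi and 21.2 ± 0.819 CPM in adeno-GFP (SD, n = 3). Il1rl1, which encodes ST2, was low throughout, at 0.592 ± 0.150 CPM in siYAP1+TAZ and 1.74 ± 0.309 CPM in siControl, and at 0.219 ± 0.104 CPM in adeno-TEADi and 1.95 ± 0.0154 CPM in adeno-GFP (SD, n = 3). The log2 changes were -0.79 and -1.24 for Il1r1, -0.78 and -1.28 for Il1rl1 and -0.48 and -0.50 for Il1rap, the shared accessory chain. Il1r1 and Il1rap thus fell in both comparisons. Il1rl1 was lower in both too, but it reached 1 CPM only in the control groups and so passed the filter through them.

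Il1r2, a decoy that binds IL-1 without signalling, had 2.55, 2.86 and 2.32 CPM in siYAP1+TAZ, against 0.150, 0.132 and 0.389 CPM in siControl, and 0.350, 0.491 and 0.508 CPM in adeno-TEADi, against 1.09, 1.06 and 1.34 CPM in adeno-GFP. It was highest in siYAP1+TAZ, and in the virus-treated cells it was the adeno-GFP libraries that stood above the adeno-TEADi libraries. Il1r2 reached 1 CPM only in siYAP1+TAZ and adeno-GFP, and so passed the filter through the higher group of each comparison. Its log2 changes were 1.55 (SE 0.116, limma adjusted p = 3.43e-10) and -0.58 (SE 0.116, adjusted p = 0.000258), and their difference was -2.13 (SE 0.163, adjusted p = 4.67e-09). The log2 scale of such low genes depends on the pseudocount: over pseudocounts of 0.1 to 5 CPM the knockdown value of Il1r2 lay between 3.13 and 0.54, and the TEADi value of Il1rl1 between -2.73 and -0.41. Il1rl2, the IL-36 receptor, averaged 94.2 ± 2.16 CPM in siYAP1+TAZ and 59.7 ± 1.73 CPM in siControl, and 68.7 ± 2.26 CPM in adeno-TEADi and 70.5 ± 3.03 CPM in adeno-GFP (SD, n = 3). Its log2 change was 0.65 in siYAP1+TAZ against siControl and -0.04 (adjusted p = 0.484) in adeno-TEADi against adeno-GFP. The second value passed as lower with libraries scaled to their totals (-0.13, adjusted p = 0.00981) and after quantile normalization (-0.13, adjusted p = 0.0116). The difference of -0.69 passed (SE 0.0606, adjusted p = 2.83e-08).

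The TSLP receptor chain Crlf2 averaged 4.28 ± 0.0456 CPM in siYAP1+TAZ and 3.11 ± 0.456 CPM in siControl, and 4.68 ± 0.535 CPM in adeno-TEADi and 3.66 ± 0.339 CPM in adeno-GFP (SD, n = 3). Its log2 changes of 0.37 and 0.28 passed under the deposited scaling, but with libraries scaled to their totals they were 0.22 (limma adjusted p = 0.0531) and 0.21 (adjusted p = 0.0785). Il18bp, which neutralises secreted IL-18, had log2 changes of 0.17 (adjusted p = 0.19) and 0.53 (adjusted p = 0.000444). Sigirr was under the filter, and Il7r, which is also in the list of 11, was not analysed here. Il1r2, Il1r1, Il1rl2, Il1rl1, Il18r1 and Il18rap lie in this order within 478 kb of chromosome 1, at 40074079 to 40551705 of mm10.

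**Figure D3:**
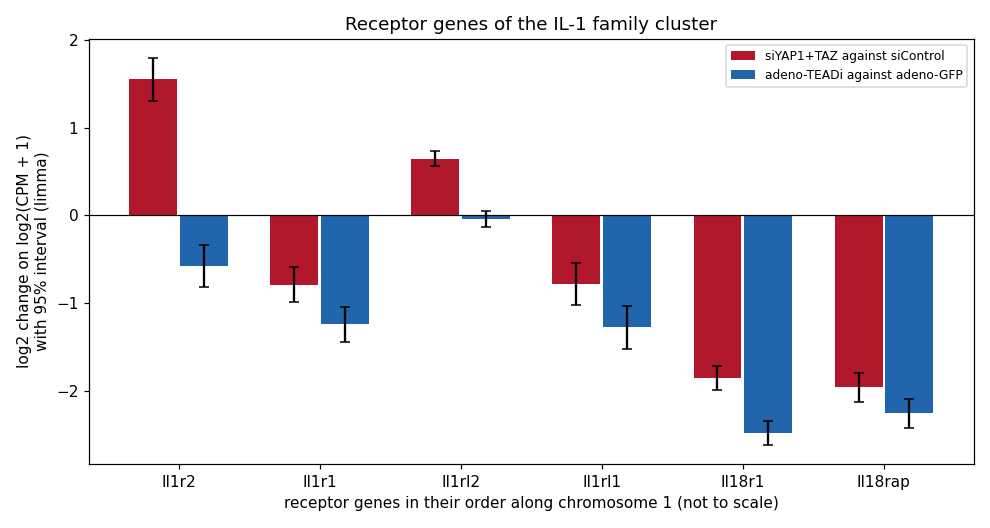
Bars from 0 give the log2 change on log2(CPM + 1) of the 6 receptor genes in their order along chromosome 1, for siYAP1+TAZ against siControl (left bar) and adeno-TEADi against adeno-GFP (right bar), with 95% intervals from limma as whiskers. Il18r1 and Il18rap lie between -1.85 and -2.48, and Il1r2 is the gene whose bars have opposite signs with both intervals clear of 0. Il1r2 and Il1rl1 passed the filter on low values only through the groups where they were high.

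Genes that mature or release these cytokines moved in both directions. Over all tested genes, 32.7% passed as higher and 36.1% as lower with the knockdown, and 33.5% and 26.3% with TEADi. Of 28 listed, 18 were tested; 8 rose, 7 fell and 3 did not pass in siYAP1+TAZ against siControl, and 9 rose, 6 fell and 3 did not pass in adeno-TEADi against adeno-GFP, with median log2 changes of 0.12 and 0.16. Gsdma, a pore-forming gasdermin of skin, had the largest change, at 351 ± 9.14 CPM in siYAP1+TAZ and 58.0 ± 5.43 CPM in siControl, and at 147 ± 10.4 CPM in adeno-TEADi and 29.4 ± 8.70 CPM in adeno-GFP (SD, n = 3), with log2 changes of 2.58 (limma adjusted p = 2.25e-13) and 2.32 (adjusted p = 2.44e-12). Gsdmc, of the same family, had log2 changes of 1.94 and 1.13. Its copies Gsdmc2, Gsdmc3 and Gsdmc4 are alike in sequence, so the split of reads among them is uncertain. Casp1, the inflammasome caspase that cleaves pro-IL-1 beta and pro-IL-18, averaged 13.1 ± 0.496 CPM in siYAP1+TAZ and 11.5 ± 0.477 CPM in siControl, and 17.8 ± 1.05 CPM in adeno-TEADi and 9.42 ± 0.378 CPM in adeno-GFP (SD, n = 3). Its log2 change was 0.85 (adjusted p = 8.25e-10) with TEADi and 0.18 (adjusted p = 0.0190) with the knockdown, and the difference of 0.67 passed (adjusted p = 7.43e-06). The knockdown value of Casp1 is of the size that scaling can move. Scaling to totals moved the median of all genes by -0.17 in that comparison. Casp14, a caspase of terminal differentiation and not of cytokine cleavage, had a log2 change of 1.33 in siYAP1+TAZ against siControl. With the viruses its libraries overlapped, at 52.1, 55.4 and 56.3 CPM in adeno-TEADi and 46.2, 40.1 and 54.9 CPM in adeno-GFP.

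Of 21 tested signalling genes downstream of the receptors, 15 rose, 4 fell and 2 did not pass in siYAP1+TAZ against siControl, with a median log2 change of 0.30, where 32.7% of all tested genes passed as higher. With libraries scaled to their totals 11 rose and 5 fell. In adeno-TEADi against adeno-GFP, 9 rose, 6 fell and 6 did not pass, with a median of 0.08. There, 33.5% of all tested genes passed as higher and 26.3% as lower. Traf6, the ubiquitin ligase shared by IL-1, IL-18, IL-33 and IL-36 receptors, averaged 135 ± 2.48 CPM in siYAP1+TAZ and 42.1 ± 1.45 CPM in siControl, and 56.2 ± 2.69 CPM in adeno-TEADi and 35.6 ± 4.35 CPM in adeno-GFP (SD, n = 3), with log2 changes of 1.66 (limma adjusted p = 1.05e-14) and 0.65 (adjusted p = 2.86e-08). Peli1, a ubiquitin ligase of the same pathway, had 1.42 with the knockdown. Irak3 and Tollip, which are known to restrain the pathway, were among those that rose, Irak3 with log2 changes of 1.26 (0.81 with a pseudocount of 5 CPM) and 0.51 and Tollip with 0.63 in adeno-TEADi against adeno-GFP. Tollip averaged 207 ± 1.98 CPM in siYAP1+TAZ and 130 ± 4.55 CPM in siControl (SD, n = 3).

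Genes that IL-1 and NF-kappa-B are known to induce moved in both directions. Beside them, 32.7% of all tested genes passed as higher and 36.1% as lower with the knockdown, and 33.5% and 26.3% with TEADi. Of 28 tested, 14 rose, 10 fell and 4 did not pass in siYAP1+TAZ against siControl, and 9 rose, 13 fell and 6 did not pass in adeno-TEADi against adeno-GFP, with median log2 changes of 0.13 and -0.14. The alarmin calcium-binding proteins S100a8 and S100a9 had log2 changes of 1.95 and 1.94 with the knockdown and of 1.74 each with TEADi. Tnf averaged 5.43 ± 0.222 CPM in siYAP1+TAZ and 21.8 ± 0.982 CPM in siControl (SD, n = 3), a log2 change of -1.82 (limma adjusted p = 2.11e-14). In adeno-TEADi Tnf averaged 6.03 ± 0.343 CPM, against 18.3 ± 1.59 CPM in adeno-GFP (SD, n = 3). The chemokine gene Ccl2 averaged 1.48 ± 0.225 CPM in adeno-TEADi and 6.29 ± 0.131 CPM in adeno-GFP (SD, n = 3), a log2 change of -1.56 (adjusted p = 4.32e-11), or -0.80 with a pseudocount of 5 CPM. With the knockdown Ccl2 had a log2 change of 0.37 (adjusted p = 0.00227).

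Of 8 further alarmins and genes known to act on Tslp, 7 were tested; 2 rose, 4 fell and 1 did not pass in siYAP1+TAZ against siControl, and 3 rose, 2 fell and 2 did not pass in adeno-TEADi against adeno-GFP, with median log2 changes of -0.28 and -0.0021. Among all tested genes, 32.7% passed as higher and 36.1% as lower with the knockdown, and 33.5% and 26.3% with TEADi. Ovol1, a transcription factor of differentiating keratinocytes, had log2 changes of 2.41 and 1.70. F2rl1, the protease receptor PAR2 whose activation is known to induce Tslp, averaged 34.5 ± 1.01 CPM in siYAP1+TAZ and 56.7 ± 1.32 CPM in siControl, and 32.8 ± 1.32 CPM in adeno-TEADi and 99.4 ± 5.30 CPM in adeno-GFP (SD, n = 3), with log2 changes of -0.70 (limma adjusted p = 7.23e-11) and -1.57 (adjusted p = 8.00e-16). Vdr, the vitamin D receptor through which vitamin D analogues are known to induce Tslp in mouse skin, had log2 changes of -0.53 with the knockdown and -0.91 with TEADi, and its partner Rxra had 0.56 with the knockdown (0.37 with libraries scaled to their totals) and 0.30 with TEADi. The part of these genes in the level of Tslp was not tested.

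**Figure D4:**
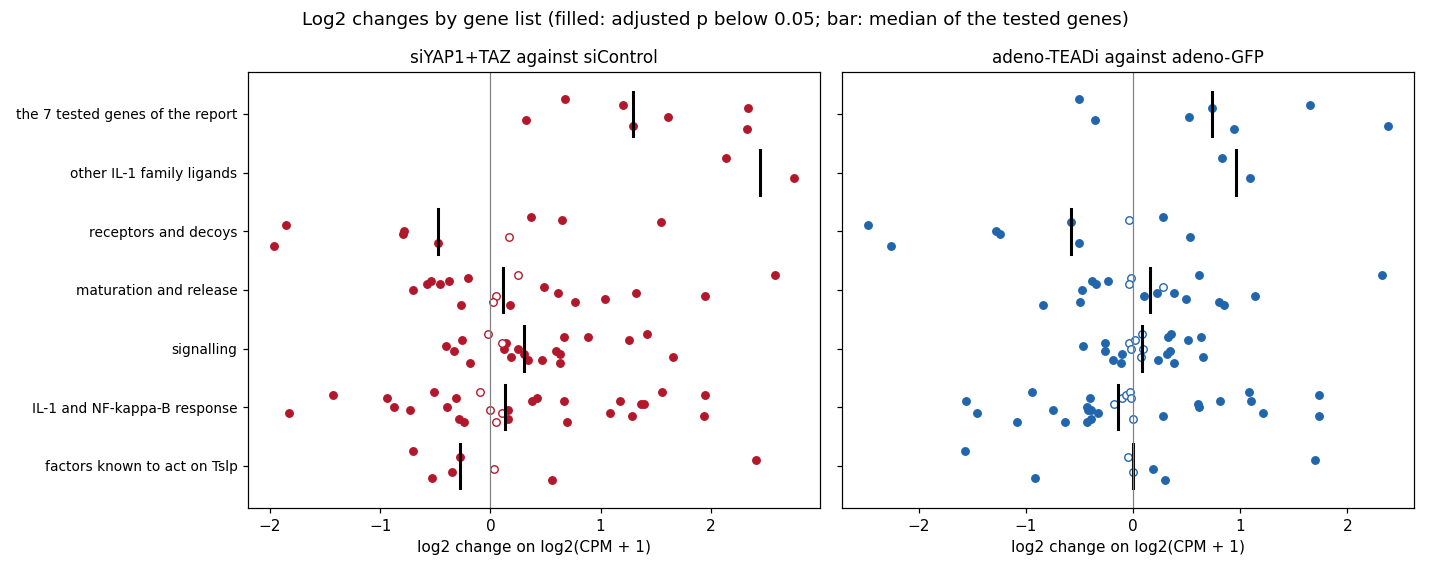
Each point is the log2 change on log2(CPM + 1) of 1 tested gene, by list, in siYAP1+TAZ against siControl (left) and adeno-TEADi against adeno-GFP (right); filled points passed at an adjusted p under 0.05 and the vertical bar is the median of the list's tested genes. The 7 tested genes of the report lie right of 0 on the left panel and on both sides of 0 on the right panel, and receptors lie mostly left of 0 in each.

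Across the 12 libraries, the genes whose levels were most like those of a member were found by Pearson's r of log2(CPM + 1) over all tested genes, as a description; the libraries fall into 4 groups, so these values mostly reflect the group means. Tslp was most like Aqp9 (r = 0.999), with 64.6 CPM in siYAP1+TAZ and 24.2 in siControl, and 64.2 in adeno-TEADi and 10.1 in adeno-GFP, and next like Areg, the EGF receptor ligand amphiregulin (r = 0.996). Il36g (Il1f9) was most like Traf6 (r = 0.999) and Sh3bp5 (r = 0.998), and Il36a (Il1f6) most like Smpd3 (r = 0.993) and Wdr26 (r = 0.992). Il33 was most like Rlim (r = 0.990) and the desmosomal cadherin gene Dsc2 (r = 0.987), Il1rn most like Fam83c and Rcan1 (r = 0.993 each), and Il1a most like the cornified envelope gene Lce1a2 (r = 0.982) and Tmem170b (r = 0.981). Il18 had the weakest likeness, to Thbs2 (r = 0.926) and Gm9958 (r = 0.923).

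The differentiation keratins Krt10 and Krt1 were higher in both treated groups. Of the 7 tested genes, 5 were higher in both, and Il1a and Il18 were lower in adeno-TEADi. Over all tested genes, 32.7% passed as higher and 36.1% as lower with the knockdown, and 33.5% and 26.3% with TEADi. The share of all genes higher in both was not computed. Krt10, a keratin of suprabasal cells, averaged 695 ± 70.1 CPM in siYAP1+TAZ and 43.2 ± 4.77 CPM in siControl, and 393 ± 3.35 CPM in adeno-TEADi and 49.6 ± 9.32 CPM in adeno-GFP (SD, n = 3), and Krt1 had log2 changes of 2.52 and 1.60. Of 9 macrophage and monocyte markers, 8 were measured and 5 tested; 4 rose and 1 fell in siYAP1+TAZ against siControl and 3 rose and 1 fell in adeno-TEADi against adeno-GFP. The summed level of the list was 53.2 to 55.0 CPM in siYAP1+TAZ and 20.3 to 21.0 CPM in siControl, and 42.8 to 46.7 CPM in adeno-TEADi and 19.96 to 23.1 CPM in adeno-GFP. Cd68, a lysosomal gene, made up 38.03 of that sum in siYAP1+TAZ and 9.97 in siControl, and the pan-leukocyte gene Ptprc was at most 0.508 CPM in any library. Langerhans and dendritic cell markers, 4 of 6 measured, summed to 119 to 130 CPM in siYAP1+TAZ and 204 to 214 CPM in siControl, and to 101 to 110 CPM in adeno-TEADi and 210 to 224 CPM in adeno-GFP, nearly all of it Epcam. The summed T cell markers (1 of 5 measured) reached at most 1.91 CPM in any library, mast cell markers (1 of 5) 1.017, fibroblast markers (5 of 6) 11.2, endothelial markers (4 of 5) 11.6 and melanocyte markers (4 of 4) 4.51. The part of differentiation or of other cells in the levels of the 8 genes was not tested.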

How the data were processed

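Polyadenylated RNA was measured in 12 libraries, 3 in each of 4 groups taken from the labels. The authors deposited CPM values, with TMM scaling per the file's name. A second deposited table holds the authors' ratio, p-value and adjusted p-value for each gene in both treatments. Cutadapt 1.18, STAR 2.7.0f and Partek 8.0.19.0819 were used with build mm10, per the submitters' processing notes. The sources used here give neither the authors' test nor the counting rule and its use of strand. The samples' depth was read from the steps of low values; 83.5% to 85.4% of low values lay within 0.1 of a whole number of reads, short of the 95% set as the minimum, so no count model was run.

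From these values, log2(CPM + 1) of all 12 libraries was fitted with limma 3.58.1 in R 4.3.3 (1 mean per group, eBayes with trend, two-sided tests). A gene needed 1 CPM or more in 3 or more libraries, which set aside 4124 genes and left 12966 for the Benjamini-Hochberg adjustment. The fit was tested on simulated data first. Contrasts were siYAP1+TAZ against siControl, adeno-TEADi against adeno-GFP, the second effect minus the first, and adeno-GFP against siControl. The members and gene lists were chosen with earlier results of these data known. All 8 members were described, with the up to 3 genes of largest absolute change per context list and comparison, and the 2 most similar genes per tested member; the remaining receptors and the cell type markers with values were added after their values were seen. Gene positions and exon lengths are from GENCODE vM21, promoters from RefSeq GRCm38.p6. Promoters of Il36a (Il1f6) and Tslp were not used here. Alternatives changed the pseudocount, filter, scaling, variance model, samples and replicate block. The labels do not state that letters pair samples, so the main fit used no pairing, and a replicate block was run as an alternative. Same-letter libraries of the 2 groups of a comparison had residual correlations of -0.0136 to 0.161. Libraries with other letters had -0.166 to 0.0527, so some pairing may be present.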

Additional observations from a re-analysis of the deposited data

Results flagged for a closer look

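The effects of adeno-TEADi (against adeno-GFP) and siYAP1+TAZ (against siControl) differed for all 7 tested genes by the test of the difference itself in limma, each on 3 libraries a group. The adeno-TEADi effect minus the siYAP1+TAZ effect was 1.09 for Tslp and 0.45 for Il33, and was -0.68 for Il1a, -1.09 for Il1rn, -1.18 for Il18, -1.60 for Il36a (Il1f6) and -1.38 for Il36g (Il1f9). The same test passed for 51.5% of all genes. The Il33 difference (limma adjusted p = 0.0434) did not pass in 12 of 21 alternatives. For Tslp, the treated groups overlapped at 1018 to 1141 CPM in siYAP1+TAZ and 971 to 1098 CPM in adeno-TEADi, and the control groups did not, at 414 to 461 CPM in siControl and 177 to 220 CPM in adeno-GFP. For Il36g (Il1f9), the libraries of the control groups overlapped and the treated groups did not, at 295 to 312 CPM in siYAP1+TAZ and 85.1 to 103 CPM in adeno-TEADi. The part of the delivery method in these differences was not tested.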

How the results depend on the processing

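Of 62 gene results, 59 kept their direction and their side of the threshold under every alternative run, and no result reversed. These were the tested members in all contrasts and context genes picked for their largest changes past the threshold. That choice of context genes favoured stable calls. Crlf2 and Il1rl2 were outside these results, and their calls changed with scaling, as given above. The knockdown value of Casp1 was outside them too and was not followed under the alternatives. The Il33 difference did not pass with a pseudocount of 5 CPM, without the filter, without the trend or with a robust fit (adjusted p = 0.187), so the members higher in the difference were 1 instead of 2 in each; over single libraries left out they ranged from 1 to 2. The Il36g (Il1f9) contrast of adeno-GFP against siControl did not pass with the robust fit (adjusted p = 0.0864), and members lower there ranged from 3 to 5 over libraries left out. With libraries scaled to their totals, 7146 genes were lower in siYAP1+TAZ than in siControl, against 4687. Under totals, genes passing were 3034 higher and 4717 lower in adeno-TEADi against adeno-GFP (4339 and 3415 as deposited), 4655 and 2514 in the difference (3424 and 3249), and 3180 and 2214 in adeno-GFP against siControl (2421 and 2823). The cause was not tested. With the letters as a replicate block, 4296 genes were higher and 4765 lower in siYAP1+TAZ than in siControl, and no call of a member changed; 7 of 12 libraries correlated best with a library of their own letter. A fit on 6 libraries alone was not run for the difference. Il1b, with 2 to 17 reads a library, is limited by depth: without the filter its log2 change was 0.38 (limma adjusted p = 0.00101) in siYAP1+TAZ against siControl and 0.05 (adjusted p = 0.656) in adeno-TEADi against adeno-GFP.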
